A study of Mus musculus with 7 samples.

Results

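The Frizzled receptor family was examined in 7 mouse lymphoma cell lines sequenced as bulk RNA. Its members were the 10 genes Fzd1 to Fzd10, selected on the symbols that match the Entrez identifiers of the count tables, out of 27179 genes listed for every library. The family was put together with the contrast between genotypes in view, because of the counts of Fzd10, so the levels of its members are given below as a description and carry no test. The lines came from end-stage Eµ-Myc lymphomas of C57BL/6 males. Eµ-Myc mice carry a Myc transgene driven by the immunoglobulin heavy chain enhancer, which acts in B lineage cells, and all 7 lines carried it. In 3 lines Smchd1 was wild-type, and 4 lines were Smchd1 null. The sample labels describe the null lines as homozygous for a gene trap, whereas the methods of the study write the genotype as MD1/MD1, and the allele could not be settled here. Smchd1 encodes a chromosomal protein of the SMC type that takes part in gene silencing. The labels do not say whether each line came from a different mouse, so the spread between lines may be smaller than that between animals.

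Frizzled proteins are cell surface receptors that cross the membrane several times and bind secreted Wnt ligands through a cysteine-rich domain outside the cell. With the co-receptors Lrp5 or Lrp6 they act through Dishevelled to spare beta-catenin from destruction, so that it enters the nucleus and works with TCF and LEF proteins on target genes. Without these co-receptors they act in other branches, of which planar cell polarity is one. In the B lineage Fzd9 is known for a part in the development of early B cells in the mouse.

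Library totals ranged from 3626853 to 6822924 counts in wild-type lines and from 6225875 to 7519549 in null lines. Wild-type 1 was the library with the lowest total, and the only one of batch 1 and of single-end reads. Smchd1 averaged 232 ± 14.8 CPM (counts scaled to a common library total; SD, n = 3) in wild-type lines and at 26.5 ± 2.85 CPM (SD, n = 4) in null lines, which did not overlap. The 6 B cell markers reported summed to between 815 and 1375 CPM in 6 libraries and to 472 CPM in null 4, where 4 of the 6 were at their lowest level and 2 were not. The T cell markers summed to at most 0.532 CPM in any library, and the stromal markers to 10.2 CPM in wild-type 1 and at most 0.266 CPM in the others. Null 4 also had the highest sum of the endothelial markers, 223 CPM against 47.7 to 96.0 CPM in the other libraries, and of the epithelial markers, 25.3 CPM against at most 2.93 CPM. Members and called genes whose values rest on wild-type 1 or null 4 are given with and without them.

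The 300 bases around the RefSeq starts of Fzd10 and Fzd9 are shown because these genes led the family in null and wild-type lines respectively. Both lie on chromosome 5 and each is annotated with 1 exon. The windows run from 250 bases before the start to 50 bases after it in the GRCm38.p6 build, on the strand of the gene, with CpG dinucleotides in capitals. The window of Fzd10 is chr5:128600856-128601155 on the plus strand, and that of Fzd9 is chr5:135250998-135251297 on the minus strand.
Fzd10: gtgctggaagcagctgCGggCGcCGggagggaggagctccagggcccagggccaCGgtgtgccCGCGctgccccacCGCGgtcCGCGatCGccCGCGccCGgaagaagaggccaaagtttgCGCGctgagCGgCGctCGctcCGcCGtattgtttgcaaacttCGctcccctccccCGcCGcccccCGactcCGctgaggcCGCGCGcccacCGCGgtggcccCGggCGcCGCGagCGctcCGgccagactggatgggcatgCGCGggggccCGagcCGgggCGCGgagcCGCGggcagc
Fzd9: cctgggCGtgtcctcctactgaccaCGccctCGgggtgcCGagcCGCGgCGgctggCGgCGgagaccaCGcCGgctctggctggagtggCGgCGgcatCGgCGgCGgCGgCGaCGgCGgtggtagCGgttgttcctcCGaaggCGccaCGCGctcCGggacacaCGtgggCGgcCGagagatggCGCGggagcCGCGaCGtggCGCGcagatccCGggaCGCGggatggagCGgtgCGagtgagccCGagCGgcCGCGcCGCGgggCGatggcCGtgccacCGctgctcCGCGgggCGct

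Both windows were dense in CpG. The Fzd10 window held 45 CpG dinucleotides and the Fzd9 window 53, against a median of 7 over 32851 windows of the same length. As many CpG as in Fzd10 were present in 1.93% of the windows, and as many as in Fzd9 in 0.451%. RefSeq windows were matched for 6 of the 10 members, and the others held 38 (Fzd5), 32 (Fzd4), 24 (Fzd7) and 16 (Fzd1) CpG. The letters CACGTG, an E-box that Myc and other proteins can bind, were present on either strand in the Fzd9 window alone among the 6, and in 7.15% of all windows. The letters CTTTGA, the core of TCF and LEF sites, were present on either strand in the Fzd1 window alone, and in 16.0% of all windows. The 2 words do not overlap. These matches describe the letters and say nothing of binding.

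Reads of one member could be assigned to another where the sequences are alike, so coding sequences were compared. Fzd9 was the member most like Fzd10, with 70.4% of aligned coding bases the same, and the 9 pairs with Fzd10 ranged from 55.0% to 70.4%. The longest run that Fzd10 shared with any member was 24 bases. That run is shown within 60 bases of each gene, coding bases 1373 to 1432 of Fzd10 and 1385 to 1444 of Fzd9 (counted from the start codon), with the 49 bases they share in capitals.
Fzd10: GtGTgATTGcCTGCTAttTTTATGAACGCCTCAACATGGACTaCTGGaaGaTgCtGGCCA
Fzd9: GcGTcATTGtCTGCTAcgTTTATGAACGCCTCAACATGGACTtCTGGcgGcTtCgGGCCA

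None of the 3201 stretches of 50 bases in the Fzd10 transcript was present in a transcript of another gene. Over all 45 pairs identity ranged from 54.9% to 80.4%, highest for Fzd1 with Fzd2. The longest shared run, 47 bases, was found in Fzd1 with Fzd2 and with Fzd7. No member shared 50 bases in a row with another member.

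Fzd10, a Wnt receptor best known from the embryo, was read in every null line and in no wild-type line. The Fzd10 count was 0 in wild-type 1, 2 and 3. It was 263, 372, 152 and 295 in null 1, 2, 3 and 4. As CPM the null lines were at 38.9, 59.8, 23.5 and 39.2, with a mean of 40.4 ± 14.9 CPM (SD, n = 4). The groups did not overlap. With 3 counts taken as the floor of a library, the highest floor of a wild-type library was 0.827 CPM, so the null mean was at least 48.8-fold higher and the lowest null line at least 28.4-fold higher. Bulk RNA cannot tell more cells with Fzd10 from more Fzd10 RNA in each cell.

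The null lines differed among themselves in Fzd10 by more than counting error. The highest line, null 2, was 2.55 times the lowest, null 3. The 95% Poisson interval of null 2 was 53.8 to 66.1 CPM and that of null 3 was 19.9 to 27.5 CPM, and neither overlapped the interval of another null line. Null 1 (34.4 to 44.0 CPM) and null 4 (34.9 to 44.0 CPM) could not be separated. These intervals cover counting error only. Null 4, with the lowest B cell marker sum, was close to the mean of the group, which was 40.7 CPM without it.

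Fzd10 was 1 of 34 genes, 0.125% of the 27179 listed, with 0 counts in all wild-type lines and at least 3 counts in all null lines. It ranked at 5 among the 34 by mean null CPM. The reverse pattern was present in 3 genes.

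**Figure D1:**
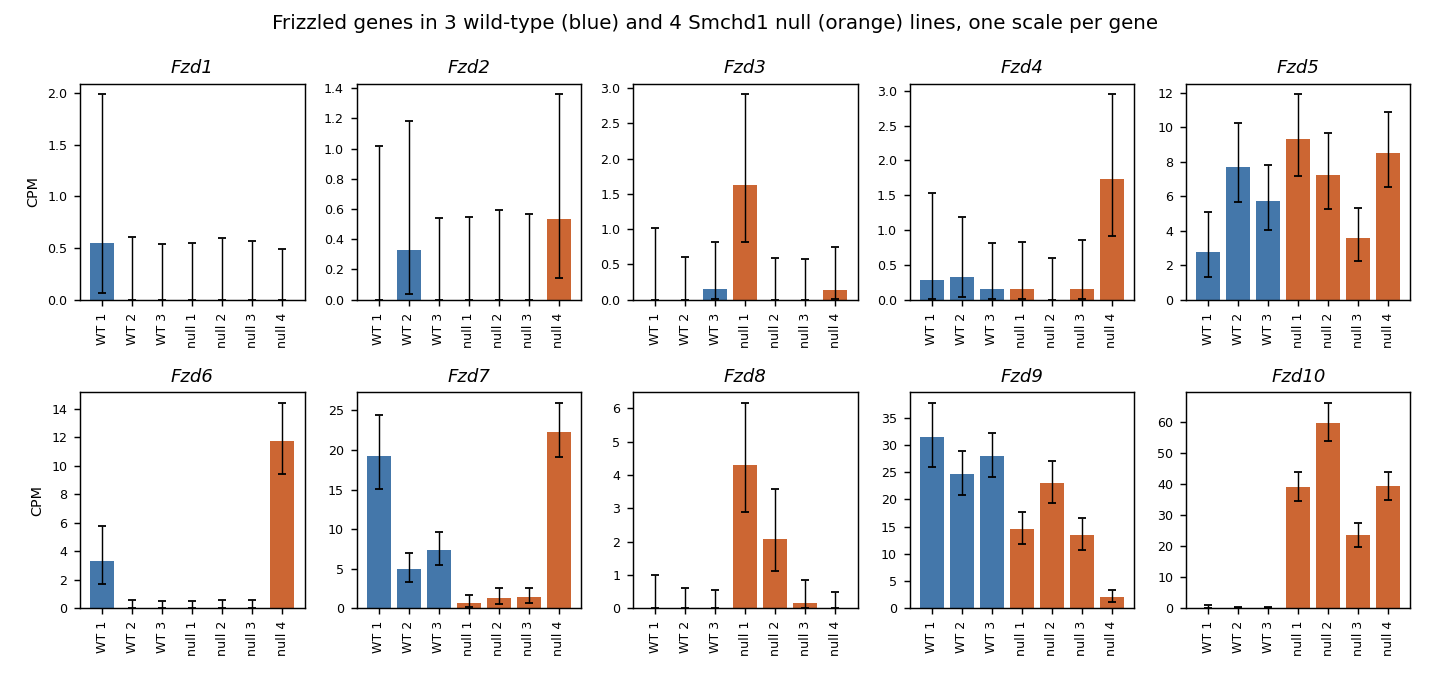
Bars give the CPM (vertical axis, own scale for each gene, from 0) of each Frizzled gene in 3 wild-type (blue, WT) and 4 Smchd1 null (orange) libraries, and lines the 95% Poisson interval of the count. Fzd10 is at 0 in every wild-type library and between 23.5 and 59.8 CPM in the null libraries, whereas Fzd6 and Fzd7 are highest in null 4.

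Fzd9, the closest relative of Fzd10 and a receptor of developing B cells, was the member with the highest level in wild-type lines. It was at 31.4, 24.6 and 28.0 CPM in wild-type 1, 2 and 3, a mean of 28.0 ± 3.41 CPM (SD, n = 3). In null 1, 2, 3 and 4 it was at 14.5, 23.0, 13.4 and 2.13 CPM, a mean of 13.3 ± 8.56 CPM (SD, n = 4). Every null line was below every wild-type line, but null 2 (interval 19.4 to 27.1 CPM) and wild-type 2 (20.8 to 28.9 CPM) had overlapping counting intervals. The fitted log2 fold change of null over wild-type was −0.81 with a standard error of 0.38 with sample weights, and −1.55 with voom alone. Null 4 was the lowest line, and without it the null mean was 17.0 ± 5.22 CPM (SD, n = 3) and the fitted value −0.55. In null 4 the low Fzd9 stood beside the lowest B cell marker sum, although 2 of the 6 markers were not lowest there, and their part in it was not tested.

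Fzd4, which also binds the non-Wnt ligand Norrin and shares 65.3% of aligned coding bases with Fzd10, was barely read. It had 1, 2 and 1 counts in the wild-type lines and 1, 0, 1 and 13 in null 1 to 4. Null 4 alone passed the floor of 3 counts, at 1.73 CPM.

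Fzd7, a receptor known from stem and progenitor cells, split the lines in another way. In wild-type 1, 2 and 3 it was at 19.3, 4.92 and 7.33 CPM. In null 1, 2, 3 and 4 it was at 0.740, 1.28, 1.39 and 22.3 CPM. The groups overlapped because of null 4, which was the highest of the 7 libraries, and null 1 to 3 were below every wild-type line. The fitted log2 fold change was −2.07 with a standard error of 0.61 in a fit that gave wild-type 1 and null 4 weights of 0.246 and 0.249, against 0.831 to 3.78 for the others. It was −1.63 with voom alone, which only leaves out the sample weights, and −0.69 in edgeR, which also changes the model. Over the group means Fzd7 averaged 10.5 ± 7.70 CPM over the 3 wild-type lines and 6.44 ± 10.6 CPM over the 4 null lines (SD), and 1.14 ± 0.349 CPM (SD, n = 3) in null lines without null 4.

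The close relatives of Fzd7 were at the edge of detection. Fzd1 had 2 counts in wild-type 1 and 0 in the other 6 libraries, the only member that reached 3 counts nowhere. Fzd2 had 2 counts in wild-type 2, 4 in null 4 and 0 elsewhere.

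Fzd5 and Fzd8 form another pair of like receptors, with 76.3% of aligned coding bases the same. Fzd5, which is known from gut and eye, was read in all 7 libraries, at 2.76, 7.71 and 5.72 CPM in wild-type 1, 2 and 3 and at 9.33, 7.23, 3.55 and 8.51 CPM in null 1, 2, 3 and 4. The ranges overlapped, and the fitted log2 fold change was 0.04 with a standard error of 0.32. Fzd8 had 0 counts in the 3 wild-type lines and 29, 13, 1 and 0 in null 1 to 4. It was thus above the floor only in null 1 (4.29 CPM) and null 2 (2.09 CPM), not in null 4.

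Fzd3 and Fzd6 are best known for planar cell polarity. Fzd3 had 11 counts in null 1, 1 each in wild-type 3 and null 4, and 0 elsewhere. Fzd6 had 12 counts in wild-type 1 (3.31 CPM), 88 in null 4 (11.7 CPM) and 0 in the other 5 libraries. The 2 libraries with Fzd6 counts were also those with the highest Fzd7. They also led for Lef1, a nuclear partner of beta-catenin, which was at 22.3 CPM in wild-type 1, 14.5 CPM in null 4 and at most 0.328 CPM elsewhere, and for Tcf7, at 5.51, 10.2 and at most 1.17 CPM. Whether these values share a cause was not tested.

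Compared per kilobase of the gene length in the tables, Fzd9 led the family in every wild-type line and Fzd10 in every null line. In wild-type lines Fzd9 was at 13.3 ± 1.62 CPM per kb (SD, n = 3), above Fzd7 at 2.19 ± 1.60 with no overlap, and the ranges of each further pair of neighbours in the order overlapped (Fzd7, Fzd5, Fzd6, Fzd4, Fzd1, Fzd2, Fzd3, and Fzd8 and Fzd10 at 0). In null lines Fzd10 was at 13.5 ± 4.98 CPM per kb (SD, n = 4), Fzd9 at 6.29 ± 4.06, Fzd7 at 1.34 ± 2.21 and Fzd5 at 1.03 ± 0.369, and every pair of neighbours in the order overlapped. Fzd10 accounted for 57.0%, 60.9%, 52.0% and 55.9% of the summed family level in null 1, 2, 3 and 4. Fzd9 accounted for 73.4% to 84.7% in wild-type lines, 30.1% to 42.1% in null 1 to 3 and 4.30% in null 4, where Fzd7 (19.8%) and Fzd6 (12.05%) took larger shares.

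The summed family level was 20.3, 14.0 and 15.7 CPM per kb in wild-type 1, 2 and 3 and 22.9, 32.8, 15.1 and 23.5 CPM per kb in null 1, 2, 3 and 4, so the groups overlapped. Without Fzd10 the null lines had 9.83, 12.8, 7.26 and 10.3 CPM per kb, below every wild-type line. Fzd9 accounted for most of this remainder in every library but null 4. Both Fzd10 and Fzd9 were in the contrast that chose the family, so nothing is read from this about the other members.

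**Figure D2:**
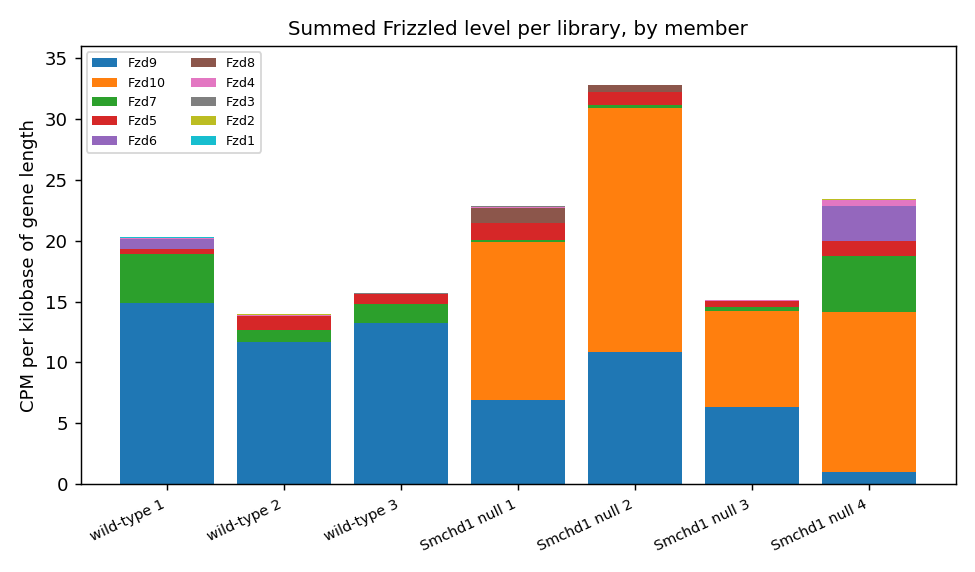
Stacked bars give the level of each Frizzled gene (CPM per kilobase of gene length, from 0) in each library. Fzd9 (blue) fills most of each wild-type bar, and Fzd10 (orange) fills 52.0% to 60.9% of each null bar.

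Low counts left 4 members, Fzd5, Fzd7, Fzd9 and Fzd10, above the filter used for the fits, at least 0.5 CPM in at least 3 libraries, out of 12303 genes that passed. Among those genes 6.35% had every null line above every wild-type line and 6.85% every null line below. Fzd10 had the first pattern and Fzd9 the second, and since both were in the contrast that chose the family nothing is read from this. Over the 7 libraries, which fall into 2 genotypes, Pearson's r in log2(CPM + 0.5) among these 4 genes ranged from −0.588 (Fzd9 with Fzd10) to 0.404 (Fzd5 with Fzd10).

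The genes next to Fzd10 on chromosome 5 were mostly at or near 0 in both genotypes. Fzd10 lies at chr5:128601106-128604093 on the plus strand. Fzd10os, a long non-coding RNA gene on the minus strand at chr5:128579130-128600687, has its start 419 bases before that of Fzd10 and does not overlap it. Tmem132d (before) and Rimbp2 (after) had 0 counts in all 7 libraries, Piwil1 had 1 count in null 1, and Glt1d1 had 40 counts in wild-type 1 and 0 elsewhere.

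Fzd10os had the same split as Fzd10 between the groups. It had 0 counts in every wild-type line and 23, 40, 14 and 152 in null 1, 2, 3 and 4, or 3.41, 6.42, 2.16 and 20.2 CPM. The null mean was 9.73 times the highest wild-type floor. It passed the filter through the null group alone, so no test is given. In null 1 to 3 its count was 8.75%, 10.8% and 9.21% of that of Fzd10, and in null 4 it was 51.5%. The kit does not mark strand, but the genes are apart, so reads on both can be told apart by position. Stx2, a membrane fusion gene further along, averaged 10.8 ± 1.93 CPM over the 3 wild-type lines and 19.8 ± 8.12 CPM over the 4 null lines (SD), which overlapped, and was not called (log2 fold change 0.81, limma adjusted p = 0.104). Without null 3 it was 1.12 and called (limma adjusted p = 0.0211), and without null 2 it was 0.31.

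**Figure D3:**
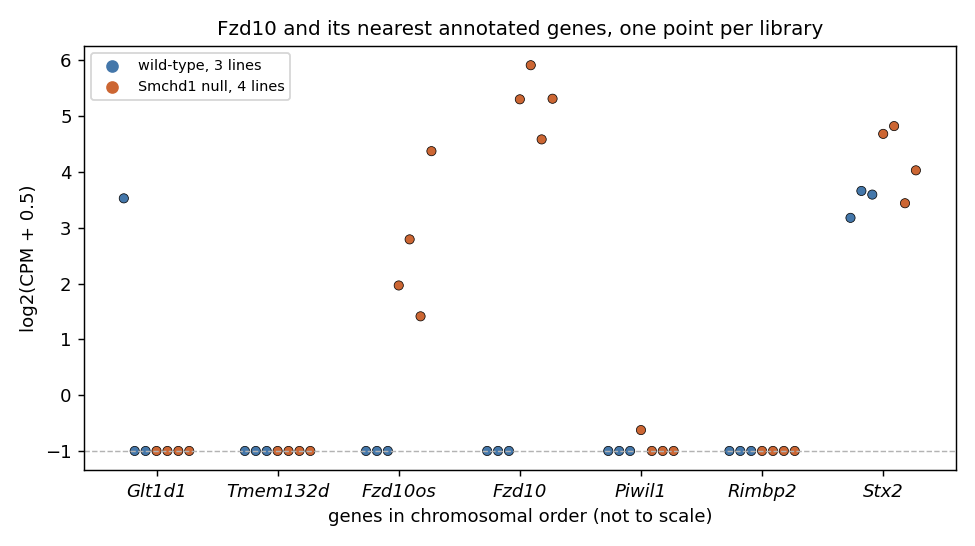
Each point gives log2(CPM + 0.5) of one library for Fzd10 and its nearest annotated genes, in chromosomal order and not to scale, with wild-type lines in blue and null lines in orange. The dashed line marks 0 counts. Fzd10 and Fzd10os are at 0 in all wild-type lines and above it in all null lines, whereas Tmem132d and Rimbp2 are at 0 throughout.

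The 5 genes whose pattern was most like that of Fzd10 over the 7 libraries, by Pearson's r in log2(CPM + 0.5) among 11550 genes, were Nfib (0.997), Tusc1 (0.997), Peg12 (0.995), Garem1 (0.992) and Isl1 (0.986). Each had 0 counts in all 3 wild-type lines. Nfib, which encodes a transcription factor, was at 51.4, 52.4, 36.8 and 49.6 CPM in null 1 to 4. Peg12, an imprinted gene, was at 64.0, 75.7, 35.8 and 29.8 CPM. In all, 42 genes had an r of at least 0.95, and the libraries share their genotype within each group, so no p is given. Fzd10 was chosen for its split between the groups, so an r this high largely restates that split. Among the null lines Fzd10, Nfib and Tusc1 were lowest in null 3, whereas Peg12 and Garem1 were lowest in null 4 and Isl1 in null 1.

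The other genes of the Wnt pathway, 99 in lists of ligands, receptors, inhibitors and signalling proteins, were tested between genotypes, although the lists too were drawn up with earlier results of these data known. Of these, 40 passed the filter. By limma with voom and sample weights, 9 fell in null lines and 0 rose at an adjusted p under 0.05, and at an unadjusted p under 0.05 there were 17 lower and 5 higher, 22 of the 40, where 31.8% of all genes tested were at that level. Over all 12303 genes tested 11.9% were called, 5.06% higher and 6.85% lower in null lines. The median log2 fold change of the 40 genes was −0.27, against −0.01 over all genes tested, and 26 of them were below 0. None of the 9 was called by limma with voom alone, which called 0.0975% of all genes, or by edgeR, which also called 0.0975%. DESeq2 called 2 of the pathway genes, Bcl9 and Lrp5 (DESeq2 adjusted p = 0.00217 and 0.00321), and 3.10% of all genes. It did not call the other 7 of the 9. At an unadjusted p under 0.05 voom alone gave 8 of the 40 and 11.3% of all genes, edgeR 9 and 11.5%, and DESeq2 10 and 12.8%. Without wild-type 2 or without wild-type 3 none was called, but then only 1 gene was called in the whole table, so this says nothing particular of the pathway. These 2 libraries had the highest weights, 3.78 and 3.06, against 0.246 for wild-type 1, and were more alike than other replicate pairs. With the 2 summed as 1 library, 0 pathway genes and 1 gene in the whole table were called. The 9 calls were thus lost when wild-type 2 and 3 were not counted as separate lines. The sum also leaves 2 wild-type libraries, and the study states that samples in a group of 2 get equal weight. Fewer libraries, the change in weights and the likeness of wild-type 2 and 3 cannot be told apart here. There were 4 calls without null 1, 3 without null 2, 6 without null 3, 10 without null 4 and 9 without wild-type 1. Among the 9 calls with all libraries, Lgr6 and Tcf7l2 reached 0.5 CPM in every wild-type line but in only 1 null line each.

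The ligands were nearly absent from the lines themselves. Of 19 Wnt genes 10 had 0 counts in all libraries and none passed the filter. The 2 with the highest level per length were Wnt10a, at 3.19 CPM in null 4 and at most 0.164 CPM elsewhere, and Wnt6, at 1.06 CPM or less throughout. Porcn, which attaches the lipid that Wnt proteins need, was at 1.91 CPM or less, and Wls, which carries them to the surface, had at most 0.147 CPM.

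Among 11 co-receptors and other Wnt receptors 6 passed the filter, and Lrp5 and Lgr6 fell. Lrp5 is, like Lrp6, a partner of Frizzled receptors in beta-catenin signalling. It was at 37.2, 110 and 119 CPM in wild-type 1, 2 and 3. In null 1, 2, 3 and 4 it was at 27.1, 19.9, 5.10 and 10.5 CPM. The groups did not overlap, with a log2 fold change of −2.83 (SE 0.44, limma adjusted p = 0.0122). Lrp6 did not fall, and averaged 69.3 ± 6.60 CPM over the 3 wild-type lines and 69.5 ± 5.21 CPM over the 4 null lines (SD). Lgr4 had a higher mean in null lines, 14.3 ± 8.25 CPM (SD, n = 4) against 4.25 ± 3.77 CPM (SD, n = 3). For both genes the groups overlapped, and neither was called. Lgr6, a receptor for R-spondins, was low in all lines, at 0.879 to 2.76 CPM in wild-type and at most 0.618 CPM in null lines (log2 fold change −2.89, limma adjusted p = 0.0470). Its call was lost without wild-type 1 (limma adjusted p = 0.0605), null 1 (0.17), null 2 (0.22) or null 4 (0.0552). Lgr6 passed the filter through the wild-type lines and null 3. It had 1, 0, 4 and 0 counts in null 1, 2, 3 and 4, so its null values are near or below the floor. Ryk, with the highest level per length in this list, averaged 95.4 ± 6.45 CPM over the 3 wild-type lines and 70.6 ± 21.5 CPM over the 4 null lines (SD) and was not called (limma adjusted p = 0.144).

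Extracellular inhibitors and the enzymes of Frizzled turnover gave 0 calls by limma, edgeR or DESeq2, with 1 gene of each list tested and neither at an unadjusted p under 0.05. Kremen1, a Dickkopf receptor, was at 120 CPM in null 4 against 15.1 to 27.6 CPM in the other 6 libraries. Dkk3 had 8.82 CPM in wild-type 1 and at most 0.164 CPM elsewhere. Znrf3, a ligase that removes Frizzled receptors from the surface, averaged 26.7 ± 8.37 CPM over the 3 wild-type lines and 24.6 ± 6.80 CPM over the 4 null lines (SD), and its partner Rnf43 was at most at 0.399 CPM.

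Of the 15 cytoplasmic signalling genes 13 passed the filter and 1 fell. Tnks2, a tankyrase that marks Axin for destruction, was at 401, 651 and 727 CPM in wild-type lines and at 405, 385, 342 and 304 CPM in null lines, where null 1 was just above wild-type 1 (log2 fold change −0.85, SE 0.14, limma adjusted p = 0.0124). Ctnnb1, which encodes beta-catenin itself, averaged 518 ± 74.9 CPM over the 3 wild-type lines and 488 ± 51.8 CPM over the 4 null lines (SD), with limma adjusted p = 0.817. Csnk1a1, a kinase of the destruction complex, averaged 245 ± 22.0 CPM over the 3 wild-type lines and 313 ± 95.8 CPM over the 4 null lines (SD), with limma adjusted p = 0.857.

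Of the 10 planar cell polarity genes 6 passed the filter and Celsr2, Vangl2 and Celsr1 fell. Celsr2, an adhesion receptor of this branch, was at 97.3, 155 and 115 CPM in wild-type lines and at 42.4, 76.1, 62.1 and 15.4 CPM in null lines, which did not overlap (log2 fold change −1.29, SE 0.31, limma adjusted p = 0.0347). Its call was lost without null 1 (limma adjusted p = 0.094), null 2 (0.062) or null 3 (0.056). Vangl2 and Celsr1 overlapped between groups because null 4, at 8.64 and 10.1 CPM, was above at least 1 wild-type line. The log2 fold change of Vangl2 was −2.69 (limma adjusted p = 0.0273), −2.99 without null 4, −1.65 with voom alone and −0.62 in edgeR. Its call was lost without null 1 (limma adjusted p = 0.073), null 2 (0.12) or null 3 (0.056). The log2 fold change of Celsr1 was −2.96 (limma adjusted p = 0.0479), −3.18 without null 4, −1.87 with voom alone and −1.43 in edgeR. The Celsr1 call was lost without wild-type 1 (limma adjusted p = 0.0502), null 1 (0.11), null 2 (0.16) or null 3 (0.093). Scrib, the scaffold gene with the highest level per length here, averaged 182 ± 13.2 CPM over the 3 wild-type lines and 218 ± 5.12 CPM over the 4 null lines (SD) and not called (limma adjusted p = 0.0749). Prickle1 was at 438 CPM in null 4 against 3.86 to 12.4 CPM in the other libraries, and was called, higher in null lines, only when null 4 was left out (log2 fold change 1.03, limma adjusted p = 0.0466).

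Of the 13 nuclear partners of beta-catenin 10 passed the filter, all 10 with a log2 fold change below 0 in the fit with sample weights, and Bcl9, Bcl9l and Tcf7l2 fell. That fit gave null 4 a low weight. By mean CPM Tcf7 was not lower, at 2.56 in wild-type and 2.64 in null lines, with null 4 at 10.2. Bcl9, an adaptor of beta-catenin, was at 47.7, 76.4 and 61.1 CPM in wild-type lines and at 17.9, 16.5, 24.9 and 33.8 CPM in null lines, which did not overlap (log2 fold change −1.80, SE 0.21, limma adjusted p = 0.00656). Its relative Bcl9l was at 19.3 to 27.6 CPM in wild-type lines, at 7.40, 8.35 and 12.8 CPM in null 1 to 3 and at 33.2 CPM in null 4 (log2 fold change −1.33, limma adjusted p = 0.0255). It was −1.50 without null 4, −0.83 with voom alone and −0.60 in edgeR. The Bcl9l call was lost without null 1 (limma adjusted p = 0.11) or null 2 (0.14). Tcf7l2, which binds the target genes, was at 1.103, 11.5 and 7.47 CPM in wild-type lines and at 2.37, 0.321, 0.154 and 0 CPM in null lines (log2 fold change −4.11, SE 1.01, limma adjusted p = 0.0373). It was −4.13 without wild-type 1, −3.85 without null 4, −4.03 with voom alone and −3.20 in edgeR. The Tcf7l2 call was lost without null 1 (limma adjusted p = 0.070), null 2 (0.11) or null 3 (0.078). Tcf7l2 passed the filter through the wild-type lines and null 1. It had 16, 2, 1 and 0 counts in null 1, 2, 3 and 4, so its null values are mostly below the floor of 3 counts. Pygo2 and Tle3 had the highest level per length in the list and were not called (limma adjusted p = 0.0729 and 0.528), but Pygo2 was called without null 3 (limma adjusted p = 0.0388).

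Of 15 genes known as Wnt targets in other tissues 6 passed the filter and 0 were called by limma, edgeR or DESeq2, with 4, 1 and 3 at an unadjusted p under 0.05. Axin2, the most widely used readout of beta-catenin signalling, was at most at 0.444 CPM in any library, Sp5 at most at 0.296 CPM, and Dkk1 at 0 in all. Not all targets were this low. Lgr5 was at 19.0, 37.2 and 39.1 CPM in wild-type lines and at 28.4, 57.8, 23.8 and 0 CPM in null lines. Nkd1 averaged 0.293 CPM over the 3 wild-type lines and 2.07 CPM over the 4 null lines. Ccnd1 averaged 190 ± 4.44 CPM over the 3 wild-type lines and 249.9 ± 37.0 CPM over the 4 null lines (SD), which did not overlap (log2 fold change 0.40, limma adjusted p = 0.0578), and it was called without null 1 (limma adjusted p = 0.0467). Cd44 averaged 120 ± 19.9 CPM over the 3 wild-type lines and 197 ± 87.2 CPM over the 4 null lines (SD), with limma adjusted p = 0.145.

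**Figure D4:**
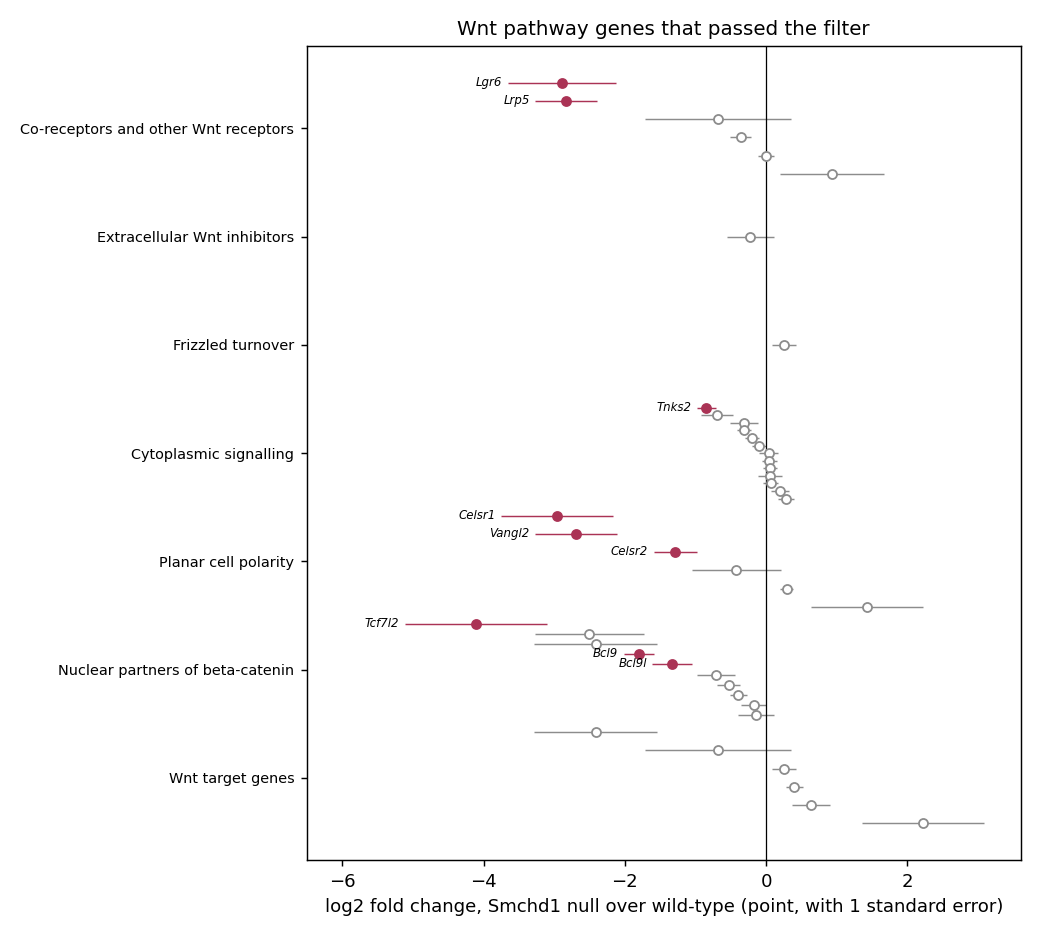
Points give the fitted log2 fold change of null over wild-type lines for Wnt pathway genes that passed the filter, by list, with 1 standard error, and filled points were called by limma with sample weights at an adjusted p under 0.05. A gene of 2 lists is drawn in both. All 9 filled points are to the left of 0, and none of them was called by limma with voom alone.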

How the data were processed

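Total RNA of 7 lines was made into libraries with an unstranded TruSeq kit. Per the labels and the study's methods, the authors aligned reads to mm10 with Subread and summarised them to genes with featureCounts, and the deposited values are raw counts for 27179 Entrez genes with gene lengths. How reads that align to several places were treated is not given in the sources used here. Symbols were matched to 25275 genes through RefSeq (GRCm38.p6), which held 98.2% of the counts. CPM was computed on library totals (3626853 to 7519549 counts).

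Following the study's methods, genes with 0.5 CPM in at least 3 libraries were kept, scaled by TMM and fitted with voom with sample weights in limma 3.58.1 (R 4.3.3), with Benjamini-Hochberg adjustment over 12303 genes. Alternatives were voom alone, block weights, removal of wild-type 1 and null 4, edgeR 4.0.16 quasi-likelihood, DESeq2 1.42.0, RLE scaling, other filters, a replicate block, a batch covariate, a threshold of 0.1, wild-type 2 and 3 summed, and each library left out. Wild-type 2 and 3 were more alike than other replicate pairs (chi-square per degree of freedom 3.79 against 17.2 to 61.2), which does not show whether they are separate lines or repeat cultures of one. They were kept apart as the labels number them, and summed as an alternative.

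The named genes were the Frizzled genes, Smchd1, called pathway genes, the 2 highest per length in each pathway list, the 5 genes most like Fzd10 and its 3 nearest genes on each side. Lef1, Tcf7, Axin2, Sp5, Dkk1, Lgr5, Nkd1, Lrp6 and Lgr4 were named after their values were seen. The members and lists were chosen with earlier results of these data known. The markers of myeloid cells summed to 0.296 to 27.1 CPM and of neural cells to 34.8 to 360 CPM. One cell type marker is not reported here.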

Additional observations from a re-analysis of the deposited data

Results flagged for a closer look

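In the 4 null lines, 11 of 33 genes screened had one library whose gap to the nearest other was larger, as a share of the range, than Dixon's 95% critical value for 4 samples, where chance would give 1.65. Null 4 stood apart as the highest for Fzd7 (22.3 CPM, next 1.39), Fzd6 (11.7 CPM, next 0), Fzd4 (1.73 CPM, next 0.154) and Fzd2 (0.532 CPM, next 0). It was also the highest for the pathway genes Prickle1 (438 CPM, next 12.4), Kremen1 (120 CPM, next 25.3), Vangl2 (8.64 CPM, next 1.18), Wnt10a (3.19 CPM, next 0.161) and Rnf43 (0.399 CPM, next 0). Null 1 stood apart as the highest for Fzd3 (1.63 CPM, next 0.133) and Tcf7l2 (2.37 CPM, next 0.321). Fzd10 and Fzd9 had no such library. For Fzd6, Fzd2 and Rnf43 the other 3 libraries were at 0, so the gap is the whole range by construction. The chance value assumes normal values, and the Frizzled counts had a part in the choice of the family. The genes are not independent, since 9 of the 11 share null 4, and groups of 3 were not screened.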

How the results depend on the processing

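The mean Fzd10 level in null lines of 40.4 CPM was 40.4 under TMM or RLE scaling and 33.9 to 46.0 with each null line left out. Leaving out 1 of 4 values cannot move their mean by 1 SD, so these values are a description and no test. The count of Wnt pathway genes called, 9 with sample weights, was 0 with voom alone, 0 with edgeR, 2 with DESeq2, 4 with block weights, 5 without wild-type 1 and null 4 together, 0 with wild-type 2 and 3 summed (1 call in the whole table), 16 at a threshold of 0.1 (22.7% of all genes), and 0 to 10 with each library left out. It was 3 and 4 without null 2 and null 1, and 0 without wild-type 2 or wild-type 3 (1 call in the whole table each). With voom alone 12 genes of 12303 were called in all, 1386 at an unadjusted p under 0.05, with edgeR 12 and 1416, and with DESeq2 382 and 1578. With a replicate block it was 3. Deviations of same-numbered libraries had correlations of −0.154, 0.224 and −0.206, and those of differently numbered libraries ranged from −0.236 to 0.206. With so few lines this cannot tell whether the numbers pair them. Over the whole table the block gave 222 calls against 1466 without it. RLE scaling, the other filters and the batch covariate kept the count within 1.5 times. Batch 1 is wild-type 1 alone, so the batch covariate in effect leaves that library out (9 calls in each) and is no separate check.

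Log2 fold changes near 0 changed direction, with no call in those cases. Kremen1 (−0.23) was at 0.45 with voom alone, 0.94 with edgeR, 0.94 with DESeq2, 0.023 with wild-type 2 and 3 summed and −0.41 to 0.13 with each library left out. Znrf3 (0.26) was at −0.078 with voom alone, −0.095 with edgeR, −0.095 with DESeq2 and −0.015 to 0.35 with each library left out. Csnk1a1 (0.055) was at −0.048 with the replicate block and −0.076 to 0.38 with each library left out. Ctnnb1 (0.042) was at −0.070 with voom alone, −0.070 with edgeR, −0.072 with DESeq2, −0.036 with the replicate block, −0.074 with wild-type 2 and 3 summed and −0.12 to 0.085 with each library left out. Over the alternatives the log2 fold change of Fzd5 ranged from −0.37 to 0.68, Fzd7 from −2.85 to −0.69 and Fzd9 from −1.55 to −0.40. The causes were not tested. Among the 5 genes most like Fzd10, 4 stayed with log2(CPM + 2) and 2 with a minimum mean of 10 CPM. Tusc1, Garem1 and Isl1 have means below that minimum, so it removes them by construction. Calls gained with a library left out were those of Stx2, Ccnd1, Pygo2 and Prickle1, and Pygo2 was also called with 10 counts in every sample. Members under 3 counts cannot be compared at this depth.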
